A study of Mus musculus with 20 samples.

Results

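Open chromatin was compared between blood stem cells that had lost mTOR and carried a single working copy of Myc, called KO MycHet here, and wild-type (WT) cells. The comparison rested on 4 of the 20 samples of the series: 2 KO MycHet libraries (Mx1-Cre+/- with mTORflox/flox and c-Myc+/flox) and 2 WT libraries (Mx1-Cre-/- with mTORflox/flox, floxed mTOR alleles without the recombinase). Each library was an assay for transposase-accessible chromatin (ATAC-seq) on 50000 sorted hematopoietic stem cells (HSC) of adult mice, and all mice had received poly(I:C), controls included. The labels name no floxed c-Myc allele in the WT mice, and they do not say whether the libraries of a genotype came from separate animals. Mx1-Cre is switched on by interferon, which poly(I:C) evokes, and it recombines in many cell types besides HSC, so the loss of mTOR was not limited to the sorted cells. A further genotype, KO (Mx1-Cre+/-;mTORflox/flox, 2 ATAC-seq libraries), and 6 ChIP-seq lists of KO and WT cells (H3K27ac, H3K4me3 and MYC) are used only to describe the regions found.

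The members were the peaks that the authors called on chromosomes 1 to 19 and X. KO MycHet 1 had 47214 peaks and KO MycHet 2 had 53722, against 17303 in WT 1 and 66531 in WT 2. Because the lists differ so much in length, the 17303 highest-scoring peaks of each list were compared, which is the whole list of WT 1. A peak's percentile is its place by score within those 17303, from 100 for the highest score to just above 0 for the last, and 0 stands for no peak among them. Peaks of the 4 lists that shared at least 1 bp were merged into 23775 regions. A region within 1000 bp of either annotated end of a protein-coding gene is said to be at a gene end (10367 regions), and every other region is distal (13408 regions).

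mTOR is a kinase that senses nutrients and growth factors and drives protein synthesis and cell growth, and MYC is a transcription factor that drives ribosome production, metabolism and division. AP-1 is a family of transcription factors made of FOS, JUN, ATF and MAF proteins. Its members are among the immediate early genes, which are switched on within minutes of a growth factor, cytokine or stress signal, and AP-1 is known for binding the sequence TGANTCA, where N is any base. CACGTG is the E-box that MYC and its partner MAX bind, and CCGGAAGT is a motif of ETS factors.

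The promoter windows on which the comparison turned are shown first. They come from RefSeq (build GRCm38.p6), run from 250 bases before to 50 bases after a gene's start, 5′ to 3′ on the gene's own strand, and bear capitals where the E-box CACGTG, the AP-1 motif TGANTCA, the cyclic AMP response element (CRE) TGACGTCA or the ETS motif CCGGAAGT occurs on either strand. The Mtor window, on chr4:148448332-148448631 (plus strand), is shown because its peak was the strongest peak at a gene end found in both WT libraries and neither KO MycHet library.
Mtor: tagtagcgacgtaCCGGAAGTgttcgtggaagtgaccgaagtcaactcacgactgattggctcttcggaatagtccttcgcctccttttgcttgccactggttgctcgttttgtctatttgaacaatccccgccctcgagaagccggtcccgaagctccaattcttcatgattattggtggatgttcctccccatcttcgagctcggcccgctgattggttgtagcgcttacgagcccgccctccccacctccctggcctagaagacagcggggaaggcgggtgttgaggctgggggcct
The next 7 windows hold TGANTCA under a region that ranked higher in KO MycHet, both with all 4 libraries and with WT 1 left out. They lie on chr1:125676746-125677045 (Gpr39, plus), chr3:88503303-88503602 (Lmna, minus), chr1:107589756-107590055 (Serpinb8, plus), chr6:122856108-122856407 (C3ar1, minus), chr10:44458699-44458998 (Prdm1, minus), chr17:53566721-53567020 (Kat2b, plus) and chr9:88731801-88732100 (Bcl2a1d, minus).
Gpr39: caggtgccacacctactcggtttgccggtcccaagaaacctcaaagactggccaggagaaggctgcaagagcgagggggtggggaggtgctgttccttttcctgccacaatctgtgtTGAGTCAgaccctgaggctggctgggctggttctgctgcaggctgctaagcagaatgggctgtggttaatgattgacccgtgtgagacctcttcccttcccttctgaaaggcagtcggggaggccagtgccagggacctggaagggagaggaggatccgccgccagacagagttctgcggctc
Lmna: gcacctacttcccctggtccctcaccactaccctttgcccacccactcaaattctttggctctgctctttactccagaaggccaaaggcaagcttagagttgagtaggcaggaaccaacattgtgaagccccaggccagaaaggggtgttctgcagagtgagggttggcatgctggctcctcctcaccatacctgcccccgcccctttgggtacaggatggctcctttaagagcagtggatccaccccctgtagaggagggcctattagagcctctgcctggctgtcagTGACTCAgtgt
Serpinb8: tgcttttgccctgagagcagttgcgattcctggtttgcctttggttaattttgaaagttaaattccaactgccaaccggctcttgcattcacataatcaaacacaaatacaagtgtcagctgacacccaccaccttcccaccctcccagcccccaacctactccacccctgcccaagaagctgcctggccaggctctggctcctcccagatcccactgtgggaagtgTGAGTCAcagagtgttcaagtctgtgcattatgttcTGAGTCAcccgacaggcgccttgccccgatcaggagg
C3ar1: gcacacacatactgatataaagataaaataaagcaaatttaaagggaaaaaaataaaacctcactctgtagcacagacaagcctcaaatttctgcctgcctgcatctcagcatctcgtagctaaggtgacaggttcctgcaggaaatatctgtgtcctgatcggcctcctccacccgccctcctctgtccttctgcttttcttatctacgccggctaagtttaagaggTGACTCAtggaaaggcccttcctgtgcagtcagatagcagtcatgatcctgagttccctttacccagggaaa
Prdm1: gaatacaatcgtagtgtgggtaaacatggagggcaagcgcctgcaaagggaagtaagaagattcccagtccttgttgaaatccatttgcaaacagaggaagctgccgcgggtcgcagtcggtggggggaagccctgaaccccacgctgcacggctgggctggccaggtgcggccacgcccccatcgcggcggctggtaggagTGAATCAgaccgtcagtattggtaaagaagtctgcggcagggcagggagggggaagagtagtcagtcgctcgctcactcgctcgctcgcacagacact
Kat2b: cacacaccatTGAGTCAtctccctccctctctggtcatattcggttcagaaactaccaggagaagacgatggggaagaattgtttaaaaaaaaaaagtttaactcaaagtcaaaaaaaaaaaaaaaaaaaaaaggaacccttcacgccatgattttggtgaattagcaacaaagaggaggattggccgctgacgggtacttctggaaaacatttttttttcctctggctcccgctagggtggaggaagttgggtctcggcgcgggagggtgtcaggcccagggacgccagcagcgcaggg
Bcl2a1d: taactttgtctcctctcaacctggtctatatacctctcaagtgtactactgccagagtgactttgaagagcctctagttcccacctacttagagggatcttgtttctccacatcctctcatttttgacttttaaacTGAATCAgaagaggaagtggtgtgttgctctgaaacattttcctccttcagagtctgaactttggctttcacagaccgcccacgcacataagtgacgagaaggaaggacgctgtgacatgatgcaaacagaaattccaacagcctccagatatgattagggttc
The Bptf window, on chr11:107132098-107132397 (minus strand), holds an E-box under a region found in both WT libraries and neither KO MycHet library.
Bptf: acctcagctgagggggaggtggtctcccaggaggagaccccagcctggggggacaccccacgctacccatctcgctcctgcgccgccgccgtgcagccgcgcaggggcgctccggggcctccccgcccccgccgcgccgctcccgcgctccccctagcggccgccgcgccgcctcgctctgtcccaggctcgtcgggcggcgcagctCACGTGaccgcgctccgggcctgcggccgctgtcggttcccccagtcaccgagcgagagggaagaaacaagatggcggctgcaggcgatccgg

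WT 1 stood apart from the other 3 libraries, and the main results below are therefore given with and without it. At gene ends the equal-sized lists overlapped widely, by 94.8% and 96.4% between the KO MycHet libraries, by 92.2% to 96.4% between a KO MycHet library and WT 2, and by 85.8% and 93.0% between the WT libraries. Distal peaks were shared less: 84.5% and 83.5% between the KO MycHet libraries, 71.3% to 75.1% between a KO MycHet library and WT 2, 56.0% to 58.9% between a KO MycHet library and WT 1, and 63.7% and 64.1% between the WT libraries. Over the 15864 regions called in all 4 full lists, Spearman's rank correlation of the scores was 0.957 between the KO MycHet libraries, 0.924 and 0.917 between them and WT 2, and 0.749 between WT 1 and WT 2. These correlations run across regions, which are not independent replicates, and depend on depth and background that the lists do not give. WT 2 thus lay closer to the KO MycHet libraries than to the other WT library. The labels' protocol for WT 1 names 2 genotypes where that of the other 3 libraries names all 3, and the labels give no batch. The last of the peaks compared scored 187.67 in KO MycHet 1 and 219.23 in KO MycHet 2, against 50.01 in WT 1 and 319.29 in WT 2, and their median width was 1505, 1196, 590 and 1437 bp in that order of libraries.

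**Figure D1:**
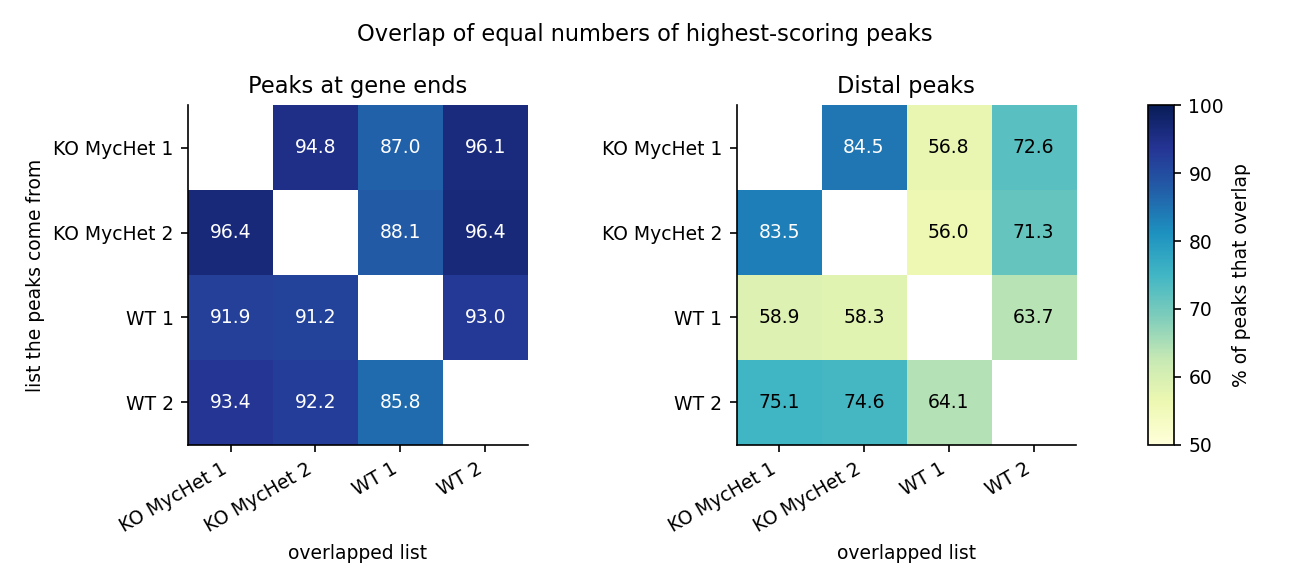
Share of the 17303 highest-scoring peaks of each list (rows) that overlap a peak among the 17303 of another list (columns), in percent, for peaks at gene ends (left) and distal peaks (right). Distal peaks of WT 1 overlapped the other 3 lists by 58.3% to 63.7%, and distal peaks of KO MycHet 1 overlapped KO MycHet 2 by 84.5%.

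The stem cell label was checked against markers of HSC and of other blood and tissue cells. Among the equal numbers of peaks, 3 and 4 of 8 HSC markers had a peak at a gene end in the KO MycHet libraries, against 6 and 4 in the WT libraries, and in the full lists 7 and 6 did in KO MycHet and 6 and 8 in WT. Kit, the receptor for stem cell factor, stood at percentiles 60.8 and 67.3 in the KO MycHet libraries and at 29.9 and 67.5 in the WT libraries. Mecom, a transcription factor of long-lived HSC, stood at 58.9 and 35.2 in KO MycHet and at 67.8 and 32.3 in WT. Procr, an HSC surface receptor, had a peak among these in WT 1 alone, at 48.9. Of 19 erythroid markers, 7 and 7 had a ranked peak in the KO MycHet libraries and 4 and 8 in the WT libraries: Klf1, the erythroid master regulator, was at 31.8 and 50.9 in KO MycHet and at 0 and 41.1 in WT. Marker lists of myeloid cells, lymphocytes, megakaryocytes and niche cells had between 1 and 9 genes with a ranked peak in any library. In the full lists many more had one: myeloid markers 17 and 14 of 25 in KO MycHet and 5 and 21 in WT, T and NK markers 12 and 14 of 25 in KO MycHet and 2 and 15 in WT, megakaryocyte markers 14 and 13 of 20 in KO MycHet and 6 and 18 in WT, and erythroid markers 12 and 13 of 19 in KO MycHet and 4 and 15 in WT. In each of these 4 marker lists the full-list count was lowest in WT 1, the shortest of the 4 peak lists. B cell markers had an end peak in the full lists for 7 and 8 of 20 genes in KO MycHet and 3 and 11 in WT. Stromal and endothelial markers had one for 11 and 10 of 20 genes in KO MycHet and 1 and 11 in WT. Among the genes without an end peak in any of the 4 full lists were Pax5 and Cd3e, which define B and T cells, and Cdh5, of endothelium. Slamf1, Hoxa7 and Ldb1, of a list of 43 HSC identity genes, had none either. A missing end peak thus does not by itself tell HSC from other cells. The part of cell composition in the results below was not tested.

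The targeted genes were read in every library. No peak was called over the start of Mtor in either KO MycHet library at any score, nor in the KO libraries, whereas it scored 341.21 in WT 1 and 1418.45 in WT 2, percentiles 96.7 and 95.6. The locus was not empty in KO MycHet. A peak about the far end of the gene scored 167.75 and 258.78 in the KO MycHet libraries and 335 in WT 2. These were percentiles 0 and 14.4 in KO MycHet and 4.33 in WT 2. A peak inside the gene scored 218.64 and 213.18 in KO MycHet, against 82.58 and 449.35 in WT. Score scales differ between lists. By percentile this peak stood at 12.9 and 0 in KO MycHet and at 41.4 and 28.9 in WT. In the ChIP-seq lists, a WT MYC peak, a WT H3K27ac peak and a WT H3K4me3 peak overlapped the same start, and no KO peak of these kinds did. Mtor is the floxed gene itself, and a peak list does not tell removed DNA from closed chromatin. Myc kept its promoter peak, with scores of 276.45 and 529.61 in KO MycHet and 142.26 and 441.64 in WT. These were percentiles 30.7 and 64.1 in KO MycHet and 71.0 and 27.4 in WT, so the genotypes overlapped fully at Myc, and peak presence does not tell 1 intact allele from 2.

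At gene ends few regions were found in 1 genotype alone. All 4 lists held 7726 of the 10367 regions at gene ends, while 101 (0.974%) were found in both KO MycHet libraries and neither WT library, and 162 (1.56%) in both WT libraries and neither KO MycHet library. Of 21631 genes, 90 (0.416%) had an end peak in both KO MycHet libraries and neither WT library, against 143 (0.661%) the other way. Distal regions differed more often: 1226 of 13408 (9.14%) were found in both KO MycHet libraries and neither WT library, and 562 (4.19%) in both WT libraries and neither KO MycHet library. As shares of what each genotype held in both libraries, these were 18.0% of 6822 distal regions for KO MycHet and 11.2% of 4997 for WT. A region counts for a genotype only when both its libraries hold it, and the KO MycHet libraries shared more distal peaks than the WT libraries did, as given above. Distal regions also ranked lower in every library. Among regions called in all 4 full lists, the libraries' median rank percentiles were 30.3 to 33.7 distally and 64.9 to 66.5 at gene ends. Lower ranks lie nearer the cutoff for the peaks compared, and the part of this in the contrast between distal regions and gene ends was not tested. With WT 1 left out the 2 directions came level: 1492 distal regions were in both KO MycHet libraries and not in WT 2, and 1469 were in WT 2 and in neither KO MycHet library. At gene ends these were 195 and 430. Without WT 2 the order turned in both places: distally 2652 regions were of KO MycHet and 3091 of WT 1 alone, and at gene ends 930 were of KO MycHet and 542 of WT 1 alone. The share of peaks that were distal was 47.5% ± 0.956 in KO MycHet and 47.4% ± 2.73 in WT (SD, n = 2 each), a difference of 0.121 points (exact permutation test, two-sided, p = 1; the smallest p that 2 against 2 libraries allow is 0.333). This p only places the difference among the rearrangements of these 4 libraries.

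Most of these regions had a lower peak in the longer lists of the other genotype. In the full list of WT 2, 95.3% of the 1226 distal regions of KO MycHet had a peak of lower rank, and in the full list of WT 1, which is no longer than the numbers compared, none had. Of the 562 distal regions of WT, 99.5% had a peak in the full list of KO MycHet 1 and 99.3% in that of KO MycHet 2. No peak in any full list of the other genotype was found for 58 distal and 3 gene-end regions of KO MycHet, and for 2 distal and 1 gene-end region of WT. The classes thus hold mostly regions of different rank. Distal regions of KO MycHet lay a median of 25792 bp from the nearest gene end and those of WT 23473 bp, against 18986 bp for distal regions of all 4 lists. In all, 51.1% of the KO MycHet regions and 53.6% of the WT regions lay inside a gene, against 56.8% of those in all 4 lists.

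Ranks give a finer measure than presence. A region or gene was said to rank higher in a genotype when both its libraries stood above both of the other's and the means lay at least 20 percentile points apart. At gene ends 445 regions (4.29%) ranked higher in KO MycHet and 506 (4.88%) in WT. Distally 1720 (12.8%) ranked higher in KO MycHet and 951 (7.09%) in WT. Without WT 1, 378 regions at gene ends ranked higher in KO MycHet and 635 in WT 2, and distally 1609 did in KO MycHet and 1270 in WT 2. Without WT 2, 1699 regions at gene ends ranked higher in KO MycHet and 1417 in WT 1, and distally 2556 did in KO MycHet and 2930 in WT 1, so the lead of KO MycHet among distal regions changed sides when WT 1 stood alone for its genotype. Single libraries of a genotype differed by 20 points or more in 7.55% of gene-end and 11.1% of distal regions (KO MycHet 1 and 2), and in 32.2% and 35.7% (WT 1 and 2). Just outside the limit, 602 regions without overlap differed by 15 to 20 points in favour of KO MycHet and 588 in favour of WT, and just inside it 512 and 467 differed by 20 to 25 points.

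**Figure D2:**
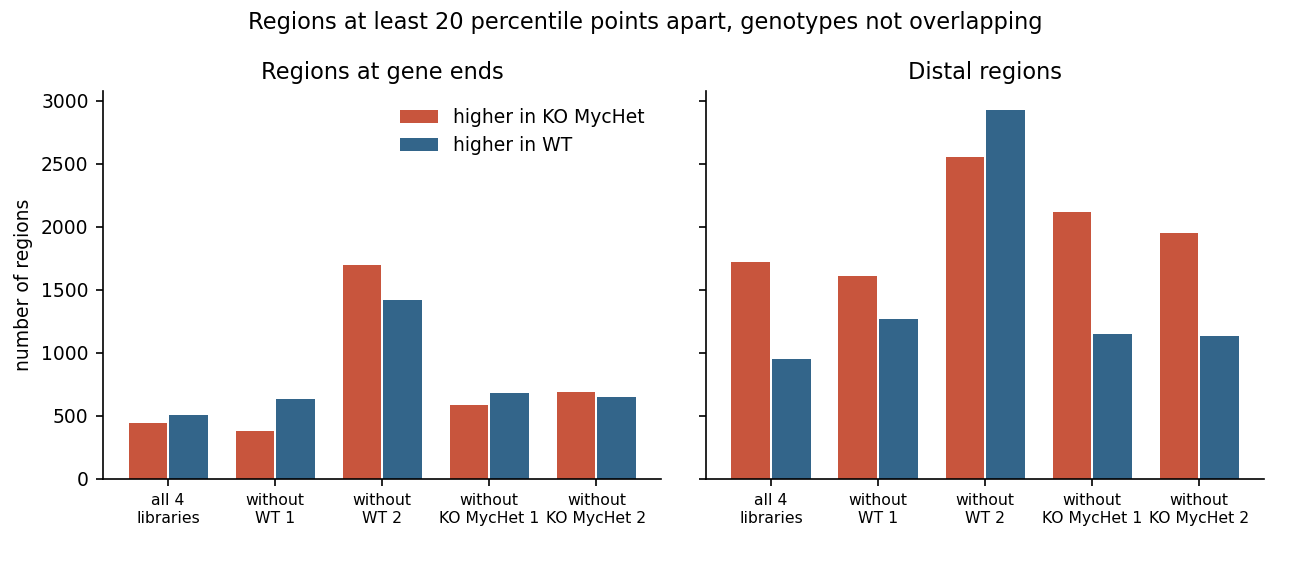
Number of regions (y axis) ranked at least 20 percentile points apart with no overlap between the genotypes, at gene ends (left) and distally (right), with all 4 libraries and with each library left out. With all 4 libraries 1720 distal regions ranked higher in KO MycHet and 951 in WT; without WT 2 the counts were 2556 and 2930.

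Promoters that ranked higher in KO MycHet carried the AP-1 motif more often than promoters that ranked higher in WT. Of 438 promoter windows under a region that ranked higher in KO MycHet, 48 held TGANTCA (11.0%, 95% exact binomial interval 8.19% to 14.3%), against 13 of 477 windows under a region that ranked higher in WT (2.73%, 1.46% to 4.62%). The share was 3.69% of 8699 windows under regions of all 4 lists and 7.04% of all 21045 windows. Leaving out WT 1 moved the shares further apart, to 13.5% of 349 windows higher in KO MycHet and 2.39% of 585 higher in WT 2. Leaving out WT 2 brought them closer, to 6.17% and 3.14%, and leaving out KO MycHet 1 or KO MycHet 2 gave 8.82% and 9.18% for KO MycHet, against 3.67% and 2.50% for WT. Between the WT libraries themselves the shares were close, at 3.79% of windows that ranked at least 20 points higher in WT 1 and 4.28% of those higher in WT 2. Restricting the middle base to C or G, as in TGACTCA read on both strands, gave 9.59% for KO MycHet and 1.68% for WT. Windows of genes with several starts can overlap, so the intervals cover counting error only, and a motif match is not a bound site.

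The other motifs searched on both strands gave smaller ratios between the genotypes wherever both groups of windows held them. The E-box CACGTG was in 8.90% of windows that ranked higher in KO MycHet and in 11.9% of those higher in WT, with 10.8% under regions of all 4 lists and 7.91% of all windows; without WT 1 it was in 10.0% for KO MycHet and 11.1% for WT 2. The ETS motif CCGGAAGT was in 11.0% for KO MycHet and 5.66% for WT, yet 11.4% of windows that ranked higher in WT 2 than in WT 1 held it too, against 6.47% the other way, so its share moved nearly as much between the WT libraries. Without WT 1 it was in 6.88% for KO MycHet and 4.27% for WT 2. GATA's AGATAA was in 9.13% for KO MycHet and 7.34% for WT, and the CRE in 2.51% for KO MycHet and 2.52% for WT. GGGCGG, the GC box, was in 59.1% for KO MycHet and 67.1% for WT, and without WT 1 in 66.2% for KO MycHet and 66.2% for WT 2. The general E-box CANNTG, which takes in the E-box above, the CCAAT box, the PU.1-type motif GAGGAAGT, the RUNX motif TGTGGTTT, the KLF-type motif GTGGGTG and the motifs of NRF1, interferon-stimulated response elements and CTCF were searched as well; the widest gaps in points among these were for CCAAT, at 29.5% for KO MycHet and 36.3% for WT, and for the general E-box, at 61.6% for KO MycHet and 68.3% for WT. Without WT 1 the order for CCAAT turned, to 35.5% for KO MycHet and 31.1% for WT 2, and the general E-box was in 63.9% for KO MycHet and 65.1% for WT 2.

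**Figure D3:**
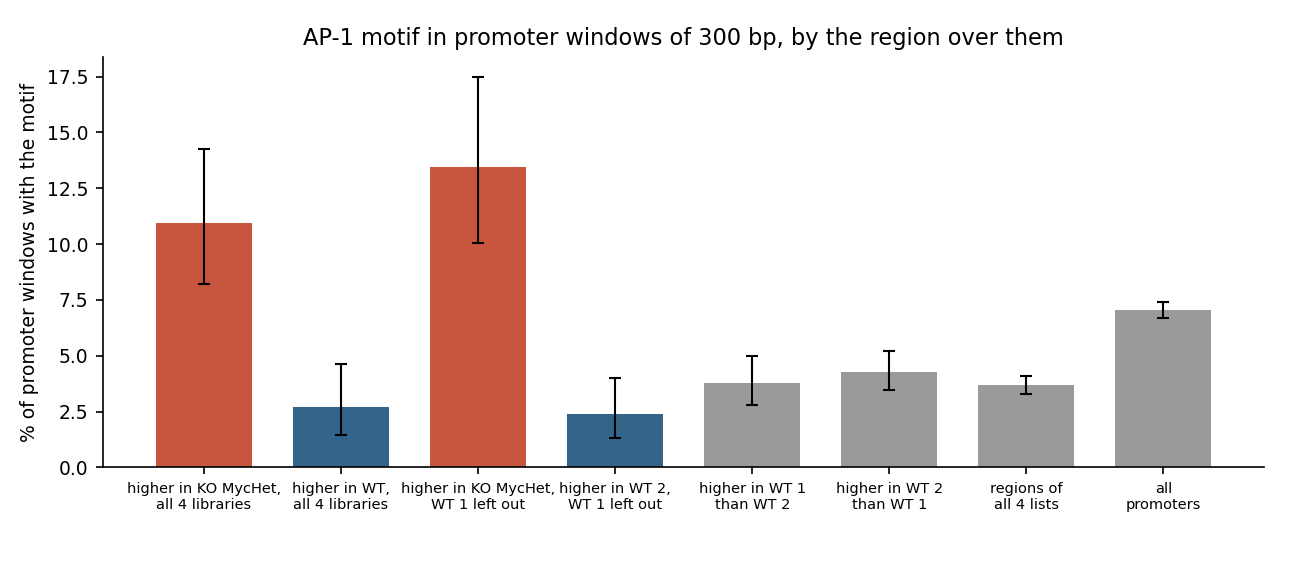
Share of RefSeq promoter windows of 300 bases that hold the AP-1 motif on either strand (y axis, percent), by the region over them; bars are shares and error bars 95% exact binomial intervals. Windows higher in KO MycHet stood at 11.0% with all 4 libraries and 13.5% with WT 1 left out, and every other group of regions stood at 2.39% to 4.28%.

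The genes behind this share are of several kinds. In 27 genes a window with TGANTCA lay under a region that ranked higher in KO MycHet both with and without WT 1, with a median difference of 31.3 percentile points. In 14 of the 27 the region over the window was at 0 in both WT libraries. The genes were picked out after their values were seen, and the values below are those of the region over the window, not of the whole gene. By the best peak at either annotated end, 14 of the 27 genes ranked higher in KO MycHet, and the difference was below 0 in 3 (Prdm1, Cenpt and Ptpre). Gpr39, a zinc-sensing receptor, ranked at 75.4 and 74.2 in the KO MycHet libraries and at 0 and 29.9 in the WT libraries. Lmna, which encodes the nuclear lamins A and C, had an upstream start at 54.3 and 49.4 in KO MycHet and at 0 in both WT libraries, while its downstream start ranked at 75.3 and 72.5 in KO MycHet and 64.4 and 38.5 in WT. Serpinb8, a protease inhibitor, whose window above bears 2 copies of the motif, was at 60.5 and 60.8 in KO MycHet and at 2.16 and 20.1 in WT. C3ar1, the receptor for complement fragment C3a, was at 62.4 and 57.4 in KO MycHet and at 0 and 25.4 in WT. Prdm1, which encodes the repressor Blimp-1, was at 69.1 and 77.3 in KO MycHet and at 15.9 and 44.6 in WT over this window. At the annotated ends of Prdm1 the order was the other way, with 45.4 and 25.4 in KO MycHet and 61.1 and 45.1 in WT. In each of these 5 windows both KO MycHet libraries lay above both WT libraries, as the choice of genes requires. Further members were the chemokine Cxcl10 at 25.5 and 37.2 in KO MycHet and 0 in both WT libraries, the metallothionein Mt2 at 68.6 and 49.6 in KO MycHet and 0 and 37.6 in WT, and Zeb2, a repressor of lineage choice, at 31.2 and 27.8 in KO MycHet and 0 in both WT libraries.

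The immediate early and AP-1 genes themselves were read at their own ends. Of 30 such genes 6 ranked higher in KO MycHet and 0 in WT, where 2.42% of all genes ranked higher in KO MycHet and 2.21% in WT. Their median difference was 9.25 points, and that of all genes was 0. Genes without an end peak cannot rank apart. All 30 genes had one in at least 1 library, but of all 21631 genes only 11543 (53.4%) did. Among those 11543 genes the median difference was 0.147 points. With WT 1 left out 12 of the 30 ranked higher in KO MycHet and 0 in WT 2, where the shares of all genes were 1.70% and 3.05%. Nfkbia, the inhibitor that holds NF-kappaB in the cytoplasm, stood at percentiles 89.6 and 86.8 in KO MycHet and at 33.5 and 49.2 in WT. Atf3, a stress-induced partner of JUN, stood at 90.3 and 89.9 in KO MycHet and at 79.6 and 23.1 in WT. Fosl2, a FOS-related AP-1 subunit, stood at 80.6 and 83.7 in KO MycHet and at 66.8 and 54.1 in WT. In these 3 genes the peak was present in every library and its rank differed. Fosl1, another FOS-related subunit, was at 40.3 and 35.6 in KO MycHet and at 0 and 16.6 in WT, and Egr3, a zinc-finger transcription factor, was at 30.5 and 48.8 in KO MycHet and at 4.11 and 0 in WT. Egr2, a close relative, was at 52.7 and 59.9 in KO MycHet and at 0 and 41.6 in WT; its difference was 35.5 points within 1000 bp of a gene end and -0.43 points within 2500 bp, and 0 with peaks trimmed to 250 bp on either side of their midpoint. With the 10000 highest-scoring peaks Fosl1 had no ranked peak in any library, and the Egr3 difference was 5.72 points.

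The remaining genes of this list were split by the WT libraries. Fos, the founding AP-1 subunit, was at 49.3 and 53.5 in KO MycHet and at 56.4 and 0 in WT. Jun, its partner, was at 30.5 and 40.7 in KO MycHet and at 84.1 and 0 in WT. WT 1 thus ranked these 2 above both KO MycHet libraries, and WT 2 held no ranked peak at either. Egr1, a zinc-finger immediate early gene, was at 0 and 81.0 in KO MycHet and at 85.4 and 0 in WT, so here the libraries of each genotype disagreed. WT 2 ranked below both KO MycHet libraries in 18 of the 30 genes (60.0%, against 14.3% of all genes), while WT 1 ranked above both in 12 and below both in 12. WT 1 stood at least 20 points over WT 2 in 13 of the 30 genes (6.0% of all genes), and WT 2 over WT 1 in 3 (11.3% of all genes). The shares of all genes again count genes without an end peak.

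**Figure D4:**
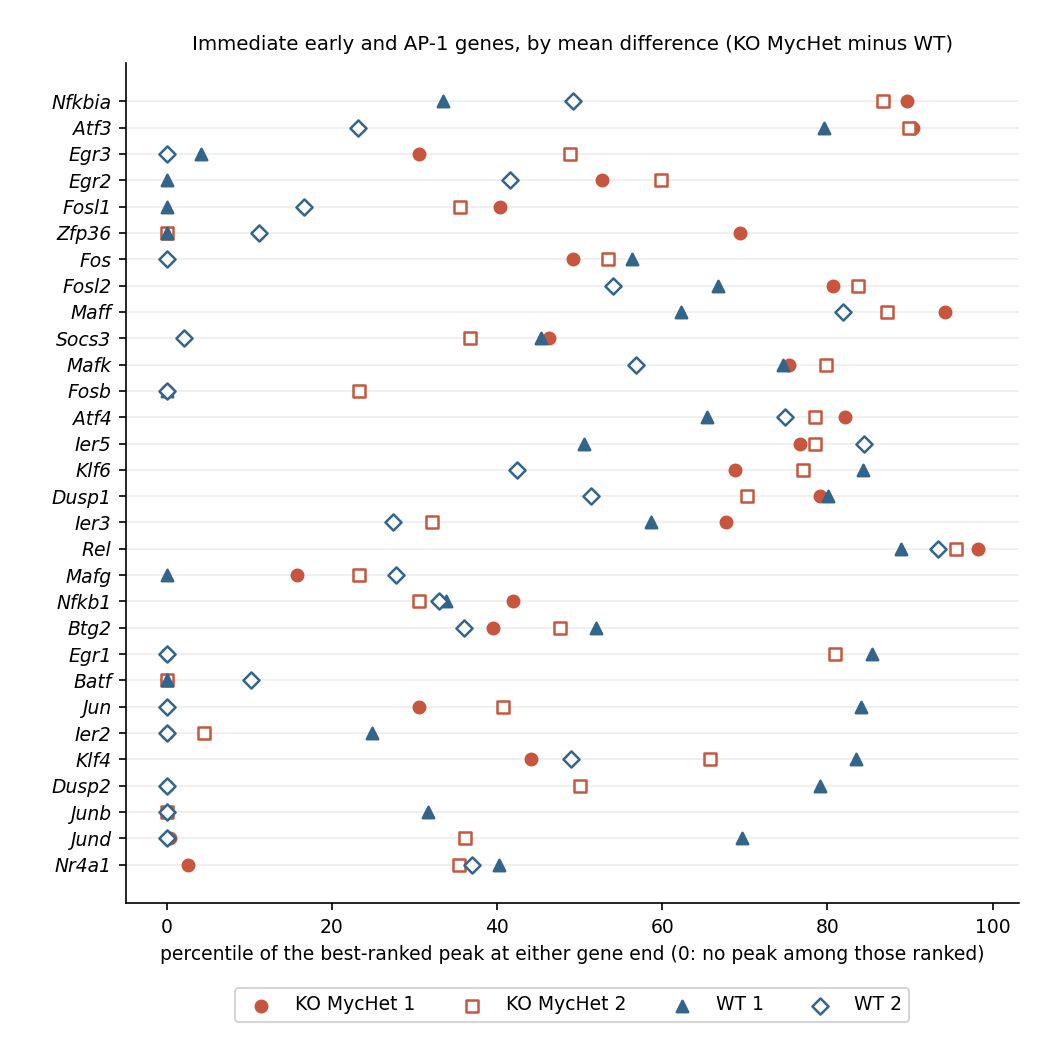
Percentile of the best-ranked peak within 1000 bp of either gene end (x axis, 0 for no peak among the 17303 ranked) for the 30 immediate early and AP-1 genes (y axis), with 1 point per library, sorted by the mean difference between KO MycHet and WT. Nfkbia stood at 89.6 and 86.8 in KO MycHet and at 33.5 and 49.2 in WT, while Jun stood at 30.5 and 40.7 in KO MycHet and at 84.1 and 0 in WT.

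Over all 26 lists of genes, 35 of 816 genes ranked higher in KO MycHet with all 4 libraries, 36 did with WT 1 left out, and 11 did in both. These were 4.29% and 4.41% of the listed genes, where 2.42% and 1.70% of all genes ranked higher in KO MycHet, and the listed genes include the immediate early list above. Only 53.4% of all genes had an end peak in any of the 4 lists. The shares of all genes are thus lowered by genes that could not rank apart, and shares among genes with an end peak were not computed. Besides Atf3, Nfkbia, Fosl1, Fosl2 and Egr3, the 11 held Cish, a feedback inhibitor of cytokine signalling through STAT5, at 72.6 and 65.6 in KO MycHet and 55.3 and 34.2 in WT. They held 2 chromatin enzymes, the acetyltransferase Kat2b at 69.7 and 70.1 in KO MycHet and 0.0578 and 46.9 in WT, and Kdm6b, a demethylase of H3K27, at 64.5 and 70.1 in KO MycHet and 0 and 30.5 in WT. The Kdm6b difference was 52.0 points, but 0 with peaks trimmed to 250 bp on either side of their midpoint and 10.1 with a window of 2500 bp. Ndufs7, a subunit of respiratory complex I, was at 68.2 and 69.5 in KO MycHet and at 27.8 and 42.3 in WT. Cd14, the lipopolysaccharide co-receptor, was at 30.9 and 35.6 in KO MycHet and at 0 and 2.28 in WT. Bcl2a1d, an anti-apoptotic BCL2 relative, was at 18.8 and 36.5 in KO MycHet and at 0 in both WT libraries; its near-identical copies could share reads with it. With the 10000 highest-scoring peaks neither Cd14 nor Bcl2a1d had a ranked peak in any library. The merged region over the Kat2b promoter window stood at 30.0 in WT 1, as it takes in a peak more than 1000 bp from the gene end.

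In the other direction 14 of the 816 listed genes ranked higher in WT with all 4 libraries, 21 with WT 1 left out, and 8 in both. These were 1.72% and 2.57% of the listed genes, below the 2.21% and 3.05% of all genes, so the count itself is no result about the lists, and the genes are given for their values. After Mtor the 8 included Castor1, the arginine sensor that holds mTORC1 in check, at 31.5 and 38.6 in KO MycHet and at 70.3 and 57.6 in WT. Bptf, the largest subunit of the NURF remodelling complex, had no ranked peak at an end in KO MycHet and stood at 32.6 and 46.1 in WT. Itga4, the alpha-4 integrin with which HSC hold to their niche, was at 27.7 and 63.8 in KO MycHet and at 82.1 and 80.7 in WT. Nbeal2, needed for platelet granules, was at 29.8 and 24.9 in KO MycHet and at 70.2 and 63.5 in WT. Slc2a3, a glucose transporter, was at 32.6 and 33.1 in KO MycHet and at 54.4 and 58.9 in WT. Ndufa9, of complex I, was at 16.7 and 19.02 in KO MycHet and at 52.7 and 42.8 in WT, the opposite direction to Ndufs7 of the same complex. Rrp1b, a ribosome biogenesis factor, was at 1.72 and 2.07 in KO MycHet and at 8.07 and 38.3 in WT, and had no ranked peak among the 10000 highest-scoring of any library. With those 10000 the differences of Bptf and Ndufa9 were -3.37 and -9.61 points.

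With all 4 libraries, lists at the core of mTOR and MYC biology had from 0 to 2 genes that ranked apart in a direction. Of all genes 2.42% ranked higher in KO MycHet and 2.21% in WT. Of 43 mTOR pathway genes 0 ranked higher in KO MycHet and 2 in WT (Mtor and Castor1), with a median difference of 0.275 points. With WT 1 left out these were 0 and 4, where 1.70% of all genes ranked higher in KO MycHet and 3.05% in WT 2. Of 40 MYC targets 1 ranked higher in KO MycHet and 0 in WT, and of 23 MYC network genes 2 (8.70%) ranked higher in KO MycHet and 1 (4.35%) in WT, with 0 and 2 when WT 1 was left out. Ribosome biogenesis had 1 and 2 of 51, ribosomal proteins 2 and 0 of 73, OXPHOS 2 and 2 of 59, glycolysis 1 and 1 of 24, and the cell cycle list 1 and 0 of 40. With WT 1 left out, ribosomal proteins had 4 and 0, ribosome biogenesis 0 and 2, and MYC targets 0 and 1. OXPHOS then had 1 and 1, glycolysis 0 and 1, and the cell cycle list 0 and 0. The 43 HSC identity genes had 0 in either direction, with ranked end peaks in 15 and 17 in the KO MycHet libraries and in 22 and 12 in the WT libraries. With WT 1 left out, 2 of the 43 ranked higher in KO MycHet and 0 in WT 2. Several listed genes ranked apart only through WT 1: Ruvbl2, a helicase that works with MYC, was at 92.2 and 96.8 in KO MycHet and at 0 and 88.7 in WT, and Zbtb17, which encodes the MYC partner MIZ1, at 70.2 and 70.2 in KO MycHet and 0 and 69.4 in WT. Cxcr4, the homing receptor of HSC, was at 68.4 and 68.0 in KO MycHet and at 9.13 and 67.7 in WT. In these 3 genes WT 2 lay within 10 points of both KO MycHet libraries.

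Regions at gene ends with the highest ranks in KO MycHet alone lay by genes of varied function. A region by Dcps, which encodes the scavenger decapping enzyme, on chr9:35121976-35124950 stood at percentiles 64.8 and 65.6, and scored 318.1 in the full list of WT 2, just below the peaks compared. H6pd, the first enzyme of the pentose phosphate route in the endoplasmic reticulum, had one at 57.6 and 57.2 on chr4:149979410-149980399. Adgrg1, the adhesion receptor GPR56, had one beside its main peak at 37.9 and 57.1 on chr8:94972824-94974459. Others lay by Olfr70 and Tmem8b, Slc13a3, Rem2, Anxa5, Kcnn4, Phldb2 and S100a10. All 10 had a peak in the full list of WT 2, with scores of 198.9 to 318.1, 0 had one in WT 1, and all 10 were among the 17303 highest of KO 2 and 4 among those of KO 1. In WT alone, the Mtor start led with percentiles 96.7 and 95.6, and the others included Acot11 at 48.7 and 51.0 and Scrt2 at 67.0 and 30.1 in the WT libraries. Mtor was also the only one of these 10 WT regions with no peak in the full list of either KO MycHet library.

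Among distal regions of KO MycHet alone, the highest lay inside Msmo1, a gene of cholesterol synthesis, on chr8:64725885-64727019. It scored 706.36 and 764.17 in the KO MycHet libraries (percentiles 85.4 and 83.7), was absent from WT 1 and scored 277.6 in the full list of WT 2. A region 1925 bp from Arid5a (chr1:36325164-36326760), which encodes an RNA-binding stabiliser of inflammatory transcripts, stood at 76.7 and 88.2 and scored 171.8 in WT 2. Regions inside Plcb4 (79.5 and 83.6), Sv2c (75.7 and 74.8), Msh3 (72.8 and 72.9), the demethylase gene Kdm1a (65.9 and 80.3) and Bin3 (62.8 and 81.4) followed, with regions nearest to Mocs2, Ndufb6 and Mettl15. All 10 were present at lower scores in WT 2 (72.2 to 312.0) and among the 17303 highest of KO 2, 1 was among those of KO 1, 4 overlapped an H3K27ac peak of KO cells and 0 one of WT cells. In WT alone the highest distal region lay 6628 bp from Mid1 (chrX:169995070-169999782), at 95.7 and 78.4, and only KO MycHet 2 held a peak there in its full list, with a score of 215.8. In mouse Mid1 spans the pseudoautosomal boundary, where X and Y share sequence, so this rank is uncertain. Regions nearest to Alg14 (76.5 and 51.9), Cwc27 (71.6 and 52.4), Rnf217 (76.6 and 43.9) and Htr7 (78.3 and 39.8) followed, and all of these had a peak in the full lists of both KO MycHet libraries.

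Distal regions were also grouped by their nearest gene. Among the 26 lists, the share of KO MycHet alone was highest by genes of RAS, ERK and eIF4E signalling. That list was picked as the highest of 26 after the shares were seen. The glycolysis list below and the BCL2 family list (3 of 20) came close to it. No share was tested against that of all distal regions, and counts per list without WT 1 were not computed. Of 55 distal regions nearest to a gene of the MNK, ERK and eIF4E list, 9 were of KO MycHet alone and 1 of WT alone, where the shares of all distal regions were 9.14% and 4.19%. The 9 comprised 3 regions by Spry2 and 1 each by Spry4 and Spred2, which encode feedback inhibitors of this pathway, and 1 each by Sos1, Rasa1, Araf and Eif4g2. Of 64 distal regions nearest to an immediate early or AP-1 gene, 9 were of KO MycHet alone (Dusp1, Egr1, Ier3, Jun, Klf6 with 2, Mafk, Nfkb1 and Nfkbia) and 3 of WT alone (Jun, Klf4 and Nfkb1). Of 33 nearest to a glycolysis gene, 5 were of KO MycHet alone (Hk2, Ldhb, Pfkfb3 with 2 and Slc2a1) and 0 of WT alone. Of 127 nearest to an HSC identity gene, 10 and 4 were, shares close to those of all distal regions. Nearness does not show which gene a region acts on, and regions by the same gene are not independent.

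The ranks of the 15864 regions called in all 4 full lists were tested with limma on normal scores. No region passed an adjusted p of 0.05 (lowest adjusted p 0.760). At an unadjusted p under 0.05, 457 regions (2.88%) were higher in KO MycHet and 489 (3.08%) in WT. They were 2.34% of the regions at gene ends and 10.4% of the distal regions. The region with the lowest p lay 64818 bp from Rbpj (chr5:53490363-53491558), the gene of the transcription factor of Notch signalling. Its rank percentiles among the shared regions were 77.0 and 78.7 in KO MycHet and 1.52 and 3.40 in WT. The region was higher in both KO MycHet libraries than in both WT libraries, and limma gave it an adjusted p of 0.760, the lowest of all. Next came regions by Bach2, a repressor of immune-cell differentiation, at 70.6 and 77.2 in KO MycHet and 15.3 and 18.0 in WT, and by Efnb2 at 97.2 and 96.1 in KO MycHet and 59.3 and 63.5 in WT. Regions by Tiam1, Ptger2 and Spry2 completed the first 6, each with adjusted p = 0.805. In the other direction the lowest p values belonged to regions nearest to Adgrl2, Adamts10, Alg14, Gja1, Lrrk1 and Pdzd2; the one by Alg14 stood at 8.48 and 4.90 in KO MycHet and at 74.4 and 49.9 in WT.

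With WT 1 left out, and WT 2 assumed to vary as the KO MycHet libraries do, limma called 90 regions (0.567%) higher in KO MycHet and 13 (0.0819%) higher in WT 2 at an adjusted p under 0.05. At an unadjusted p under 0.05 these were 1184 (7.46%) and 938 (5.91%). Of the 90, 18 were at gene ends, and the first of these by difference were at Fos, Crlf2 and Atf3. The Fos region stood at rank percentiles 48.9 and 52.6 in KO MycHet and at 52.7 and 1.04 in WT, so WT 1 did not share the low rank of WT 2. The Atf3 region stood at 89.5 and 89.0 in KO MycHet and at 77.8 and 28.3 in WT. The regions by Rbpj, Bach2, Efnb2, Tiam1, Ptger2 and Spry2 stood higher in KO MycHet here too, by 1.39 to 2.59 in normal score. Those by Adgrl2, Adamts10, Alg14, Gja1, Lrrk1 and Pdzd2 stood lower, with differences of -1.26 to -1.67. These regions were picked by their low p in the fit of all 4 libraries, which holds the same libraries. Their differences here are therefore no separate support. Also higher in WT 2 was a region 53440 bp from Bcl11a, a repressor of fetal globin genes that HSC also need. It stood at 21.1 and 11.2 in KO MycHet and at 61.4 and 68.0 in WT. Without WT 2 the calls were 2315 higher in KO MycHet and 2176 higher in WT 1.

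Distal regions of either genotype alone lacked a ChIP-seq peak more often than shared regions did. No ChIP-seq peak of any of the 6 lists overlapped 55.8% of the KO MycHet regions and 49.5% of the WT regions, against 13.8% of the distal regions of all 4 lists. KO H3K27ac, a mark of active enhancers and promoters, covered 25.4% of the KO MycHet regions and 31.9% of the WT regions, and WT H3K27ac covered 2.61% of the KO MycHet regions and 12.5% of the WT regions. The WT H3K27ac shares were 4.89% for KO MycHet and 9.05% for WT 2 without WT 1, and 7.88% for KO MycHet and 7.44% for WT 1 without WT 2, where the order turned. KO MYC peaks covered 20.8% of the KO MycHet regions and 9.96% of the WT regions, whereas WT MYC peaks covered 8.24% and 10.1%. Over all 13408 distal regions the shares were 24.6% for KO MYC and 16.9% for WT MYC. For H3K27ac they were 38.7% in the KO list and 13.0% in the WT list. Both classes thus lay below the share of all distal regions for each of these lists. Lists of KO and WT cells differ in length, so only shares within the same list are set side by side. With the full ATAC-seq lists in place of equal numbers, KO MYC peaks covered 3.34% of KO MycHet regions and 5.91% of WT regions, so the order of the classes changed there. Median widths were 1086 bp for KO MycHet regions, 958.5 bp for WT regions and 1482 bp for those of all 4 lists, and wider regions meet more peaks. The KO ATAC-seq libraries differed from each other here: KO 1 held 20.6% of the KO MycHet regions and 43.2% of the WT regions among its 17303 highest, and KO 2 held 69.6% and 38.4%. KO 1 has the shorter protocol text and a short list, as WT 1 does, and KO 2 the longer text and a long list, as WT 2 and the KO MycHet libraries do. KO MycHet regions were thus found in the mTOR-null library with the longer text and mostly not in the other, and the part of such library differences in the classes was not tested.

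**Figure D5:**
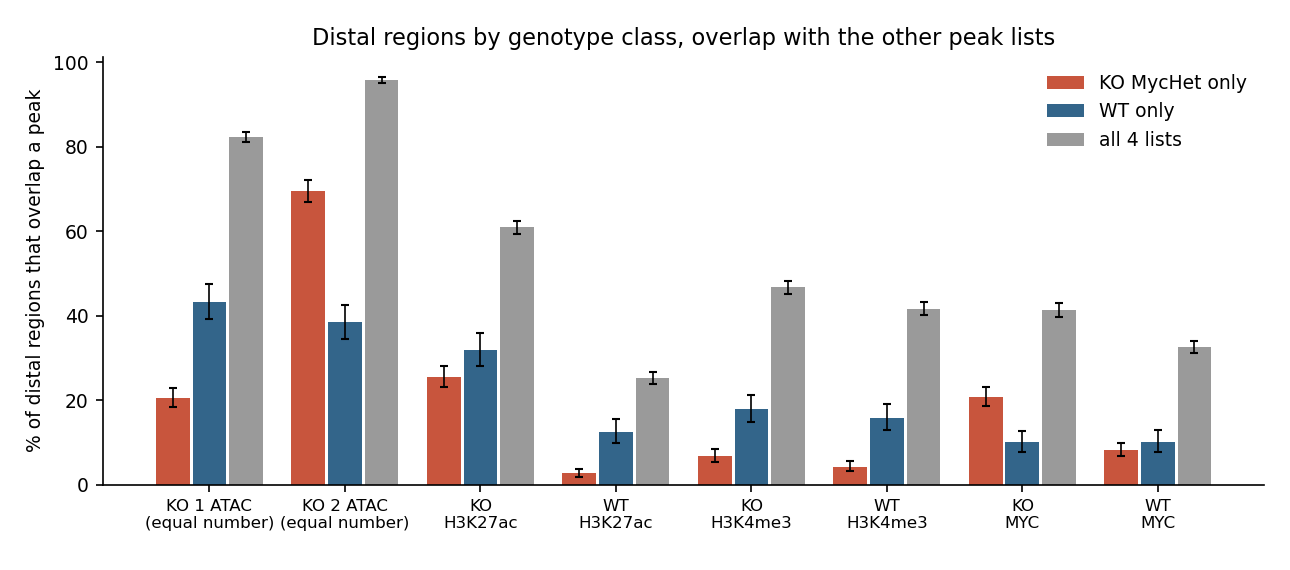
Share of distal regions (y axis, percent) of KO MycHet alone (1226), WT alone (562) and all 4 lists (3909) that overlap a peak of another list (x axis); error bars are 95% exact binomial intervals. KO 2 held 69.6% of the KO MycHet regions and 38.4% of the WT regions among its highest-scoring peaks, and WT H3K27ac covered 2.61% and 12.5%.

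Of 1005 microRNA hairpins in the RefSeq table, 19 lay within 1000 bp of a region that was of 1 genotype alone or ranked apart. Those of Mir33, Mir191 and Mir425, chosen after the values were seen because their microRNAs are well described, are shown with the seed (bases 2 to 8) in capitals.
miR-33-5p: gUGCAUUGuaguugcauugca
miR-191-5p: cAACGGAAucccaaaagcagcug
miR-425-5p: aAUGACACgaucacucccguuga
Mir33, whose product represses cholesterol export and which lies in an intron of Srebf2, was covered by a distal region of WT alone on chr15:82197075-82199030, at percentiles 24.9 and 19.2 in WT. Mir191 and Mir425 share a host region at a gene end on chr9:108565885-108569053, which stood at 56.3 and 57.8 in KO MycHet and at 44.1 and 23.4 in WT. The 3 seeds differ from each other, and an open region over a hairpin does not measure its RNA.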

How the data were processed

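ATAC-seq peak lists of sorted HSC were read as the authors deposited them, 1 list per library, with replicates not pooled. Per the labels' protocols the libraries were sequenced on a HiSeq 2500 after a transposase reaction; per the submitters' processing notes the build is mm10 and CASAVA was among the tools. For the aligner and for the peak caller's version and settings, none is given in the sources used here, though the peak names in the files begin with MACS. The deposited score per peak is the authors' own value, with no peak below 50, and its scale differs between lists, so only its rank within a list was used. The lists hold no read counts, so depth is unknown; intervals (exact binomial, 95%) cover counting of regions only.

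Peaks outside chromosomes 1 to 19 and X were dropped, the 17303 highest-scoring peaks of each list were kept, and peaks sharing at least 1 bp were merged into regions. A gene's percentile is that of its best peak within 1000 bp of either annotated end of 21631 protein-coding genes (RefSeq, GRCm38.p6, the same assembly as mm10); 21045 promoter windows of 300 bases came from the same source and covered 17274 genes. Regions called in all 4 full lists were tested with limma 3.58.1 on normal scores of ranks with Benjamini-Hochberg adjustment, fitting the 4 libraries alone. Regions named were the 10 with the highest mean percentile of each class, the 6 with the lowest limma p in each direction, and listed genes by the rule of 20 percentile points; some of these are not reported here, and genes with the AP-1 motif and microRNAs were chosen after their values were seen. Members and gene lists (873 of 881 entries matched) were chosen with earlier results of these data known. Python 3.11.15, pandas 2.3.3, SciPy 1.17.1 and R 4.3.3 were used. The limma step was checked on simulated data with the same noise in every library. Interval overlaps were checked on peaks of the KO MycHet lists against bedtools 2.31.1. The other steps were not simulated. Alternatives changed the number of peaks, the peak width, the gene-end window, the scale of the scores and the libraries. The labels do not say that libraries of a genotype came from separate animals, so p-values rest only on differences between these samples, which may be technical.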

Additional observations from a re-analysis of the deposited data

How the results depend on the processing

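Which regions belong to a genotype depended on the libraries and on how many peaks were compared. Of 512 recomputed values of 69 named genes and regions, 497 kept their sign, 8 fell to 0 and 7 took the opposite sign. The 8 were Fosl1, Bcl2a1d, Cd14, Rrp1b and the regions by S100a10 and Epdr1 with 10000 peaks, and Egr2 and Kdm6b with trimmed peaks. The 7 were Egr2 at -0.43 points with a gene-end window of 2500 bp, Fos at -5.002 without WT 2, Jun (-6.41 with all 4 libraries) at 35.6 and 76.4 in the settings without WT 1, and Myc (-1.83 with all 4 libraries) at 14.9 without KO MycHet 1 and at 19.9 and 7.31 in the settings without WT 1. Most of the 69 were picked because the genotypes did not overlap. Leaving out a library thus gave their sign little room to turn, and kept signs are weak support. In size, 143 of the 512 values moved from the main value by more than the pooled SD of the libraries. This held for 52 of 69 with 10000 peaks and for 62 without WT 1 at 47214 peaks. Rank results were not run on full lists of unequal length, where ranks cannot be compared. The lists give no depth, so a missing peak cannot be told apart from a shallow library.

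With the 10000 highest-scoring peaks of each list, distal regions of KO MycHet alone numbered 502 and of WT alone 242, those ranked apart 688 and 321, and TGANTCA was in 7.58% of windows higher in KO MycHet. KO MYC peaks then covered 40.8% of KO MycHet and 21.1% of WT distal regions, and WT H3K27ac peaks 10.2% and 18.2%. With full lists, distal regions of KO MycHet alone were 3058 and of WT alone 220, WT alone had 24 regions at gene ends and 15 genes, KO MYC peaks covered 3.34% and 5.91%, and WT H3K27ac peaks 0.36% and 4.09%. With a gene-end window of 2500 bp, regions of KO MycHet alone at gene ends were 156.

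Leaving out each library in turn gave ranges. Regions of KO MycHet alone were 164 to 930 at gene ends and 1492 to 2652 distally, and of WT alone 271 to 542 and 820 to 3091. Genes with a peak in KO MycHet alone were 150 to 1099, and in WT alone 246 to 478. Regions ranked higher in KO MycHet were 378 to 1699 at gene ends and 1609 to 2556 distally, and in WT 635 to 1417 and 1130 to 2930. Genes ranked higher in KO MycHet were 368 to 2037 and in WT 621 to 1404. TGANTCA was in 6.17% to 13.5% of windows higher in KO MycHet and in 2.39% to 3.67% of those higher in WT. KO MYC peaks covered 17.4% to 27.9% of KO MycHet and 9.64% to 14.8% of WT distal regions, and WT H3K27ac peaks 2.94% to 7.88% and 7.44% to 13.8%. The difference in the distal share ran from -1.81 (without WT 2) to 2.05 points, with -0.55 without KO MycHet 2. Limma calls ran from 0 to 2315 higher in KO MycHet and from 0 to 2176 in WT.

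Without WT 1 and with the 47214 highest-scoring peaks of each other list, a setting chosen after seeing the data, regions of KO MycHet alone were 294 at gene ends and 4924 distally, and of WT alone 552 and 5942. Genes of KO MycHet alone were 177 and of WT alone 357, and genes ranked higher were 287 and 828. Regions ranked higher were 419 in KO MycHet and 993 in WT at gene ends, and 6004 and 6667 distally. TGANTCA was in 18.3% and 5.43% of windows, KO MYC peaks covered 5.18% and 2.93% of distal regions, and WT H3K27ac peaks 1.22% and 1.83%. The cause was not tested.

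Replicate numbers named samples and did not pair them (correlation of same-numbered deviations -0.05 over 15864 regions). A replicate block gave 0 limma calls in either direction, with a lowest adjusted p of 0.218.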
